A study of Homo sapiens with 6 samples.

Results

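The genes described are CCN2 and 9 further genes of the Hippo pathway and its transcriptional output: the targets CCN1, ANKRD1 and AXL, the pathway components AMOTL2, AJUBA and LATS2, and the transcription factors and coactivators YAP1, WWTR1 (TAZ) and TEAD1. They were chosen by name, and all 10 were found among the 60606 genes of the table. RNA was sequenced from 6 tumors of the human breast cancer line MDA-MB-231, grown in Matrigel under the skin of the left flank of NSG (NOD/SCID/IL2Rγ-null) mice. The 3 irradiated tumors received 10 Gy of X-rays locally, in a single dose at about 800 mm3, and were taken 3 days later. The 3 control tumors were of the same wild-type cells and host strain and were not irradiated. Neither their size and collection time nor the age and sex of the mice are given in the sources used here. NSG mice lack T, B and natural killer cells but keep fibroblasts, vessels, muscle and myeloid cells, so a tumor also holds host RNA. All 6 tumors came from 1 cell line, and the labels do not say that each came from a separate animal, so p-values measure only the spread between these samples, which may be technical.

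The Hippo pathway is a kinase cascade that senses cell density, shape and tension. Its last kinases, LATS1 and LATS2, phosphorylate YAP1 and TAZ and hold them in the cytoplasm. When the cascade is off, YAP1 and TAZ enter the nucleus, bind TEAD factors and switch on genes such as CCN2, CCN1 and ANKRD1, often together with AP-1. The pathway is controlled mainly through the phosphorylation and location of YAP1 and TAZ, which mRNA levels do not show. MDA-MB-231 cells carry a mutation in NF2, an upstream activator of LATS kinases, and are widely used as a line with active YAP1 and TAZ. CCN2 (connective tissue growth factor) is also a known product of fibroblasts and a mediator of fibrosis.

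TEAD factors bind the motif GGAATG. It was searched on both strands (reverse complement CATTCC) in the RefSeq promoter windows of build GRCh38.p14, which run from 250 bases before a transcription start to 50 bases after it. Of the 10 genes, 8 have a window in that table, and CCN1 and TEAD1 do not. CCN2 has 3 matches, which begin 169, 104 and 95 bases before its start, all on the strand of the gene. The stretch is shown because CCN2 had the largest change of the 10 genes and because its matches lie so close together. Capitals mark the motif.
CCN2, chr6:131951450-131951553, minus strand: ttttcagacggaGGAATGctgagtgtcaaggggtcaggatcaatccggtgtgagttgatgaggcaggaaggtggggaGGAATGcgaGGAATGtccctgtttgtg
Of 35116 windows in the table, 14.0% held at least 1 match and 0.128% (45 windows) held 3 or more.

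ANKRD1, whose level was not lower after irradiation, has 2 matches. They begin 220 and 128 bases before its start. YAP1 has 1 match 162 bases before its start. These are shown for comparison with CCN2.
ANKRD1, first match, chr10:90921290-90921319, minus strand: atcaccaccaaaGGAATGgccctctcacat
ANKRD1, second match, chr10:90921198-90921227, minus strand: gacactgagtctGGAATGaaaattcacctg
YAP1, chr11:102110273-102110302, plus strand: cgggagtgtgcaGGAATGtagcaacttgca
AMOTL2, AJUBA, LATS2 and AXL each had 1 match in 1 window, and neither of the 2 WWTR1 windows had any. In all, 7 of 8 genes and 7 of their 12 windows held the motif, against 16.7% of the 27305 genes in the table. Genes with 2 windows have more sequence in which to match, and several of these genes are known for TEAD binding, so the share is a description. The AP-1 motif TGANTCA, where N is any base, was found in 7.71% of windows and, among these genes, only in ANKRD1, 195 bases before its start and not overlapping a TEAD match.

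**Figure D1:**
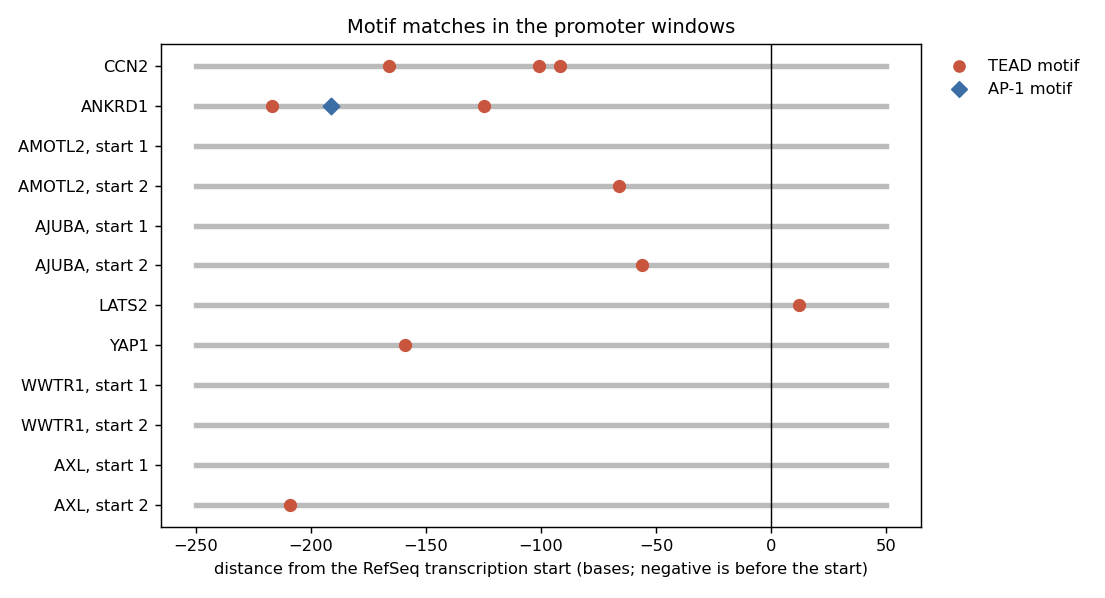
Positions of TEAD and AP-1 motif matches in the 12 promoter windows of 8 genes. The x axis is the distance in bases from the RefSeq start, and the grey line is the window searched. CCN2 has 3 TEAD matches, 2 of them side by side, and ANKRD1 has 2 with an AP-1 match between them.

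Values are TPM, a share of all transcripts scaled for gene length, so levels of different genes can be compared. TPM keeps no depth, so the number of reads behind a value is unknown. Genes averaging at least 1 TPM were tested with limma on log2(TPM + 1), which understates the change of low genes, and all 10 genes passed that filter. A gene passed the test at a Benjamini-Hochberg adjusted p of at most 0.05 over the 14140 genes tested. Control tumor 2 stood apart, with ribosomal protein genes at 25.4% of its TPM against 18.4% to 20.9% in the other tumors. The cell line's markers were present: VIM was at 3148 to 5283 TPM and LGALS1 at 4987 to 8880 TPM. ESR1, PGR and CDH1, which this line lacks, stayed at or under 0.32 TPM. Of the other genes listed as low in this line, ERBB2 was at 25.4 to 40.7 TPM and EPCAM at 2.90 to 5.10 TPM.

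Of the 10 genes, CCN2 alone fell and none rose. Over all genes tested, 1.61% fell and 1.37% rose (2.98% in both directions). In CCN1, CCN2 and AXL every irradiated tumor lay below every control tumor, against 15.0% of all genes in that direction and 26.6% in either direction. The median log2 fold change of the 10 genes was -0.30, and that of all genes tested was -0.06. Of the 10 fold changes, 7 were below 0 and 3 above, where 7872 of all 14140 genes tested were below 0.

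**Figure D2:**
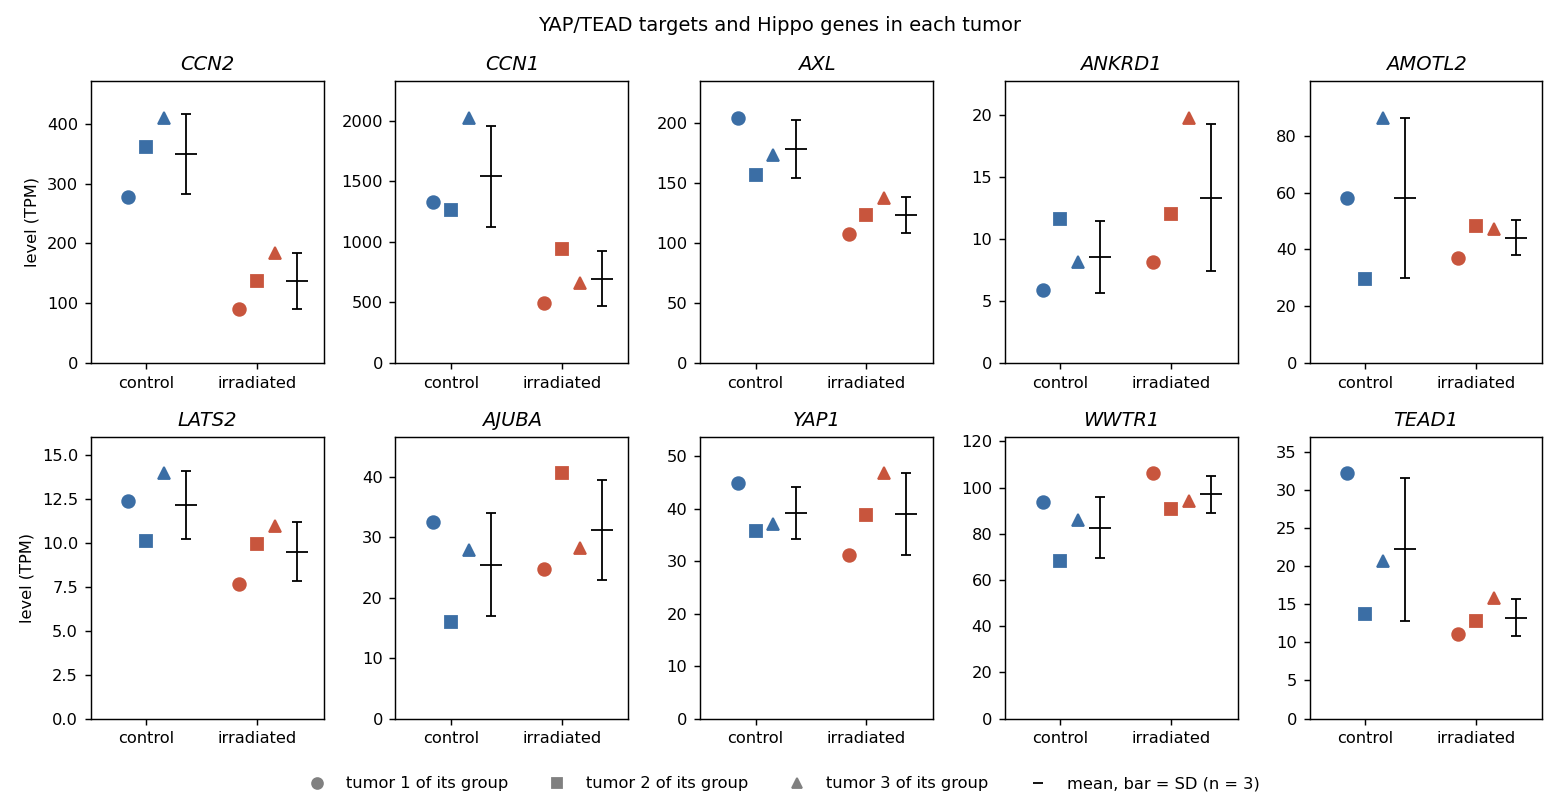
Level of each gene in TPM (y axis) in the 3 control and 3 irradiated tumors. Symbols stand for tumors 1, 2 and 3 of a group, which were not treated as pairs, and the bar shows mean and SD. CCN2, CCN1 and AXL separate the groups, and the other 7 genes overlap.

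CCN2 encodes a secreted matrix-associated protein and is the standard reporter of YAP1 and TAZ activity. It was at 278, 360.3 and 409.7 TPM in control tumors 1 to 3 and at 90.7, 137 and 184 TPM in irradiated tumors 1 to 3. The lowest control tumor was well above the highest irradiated tumor, and the spread within each group was smaller than the gap between the means. CCN2 fell from 349 ± 66.7 TPM to 137 ± 46.6 TPM (SD, n = 3 each), a ratio of means of 0.393. In limma this was a log2 fold change of -1.38 (SE 0.26, 95% interval -1.97 to -0.79, adjusted p = 0.0322), the 266th lowest of 14140. In bulk tumors, fewer cells of a type and less RNA per cell cannot be told apart. The call of CCN2 was lost without any one control tumor (adjusted p = 0.0709, 0.0537 and 0.101 without tumors 1, 2 and 3) and without irradiated tumor 1 or 2 (0.0739 and 0.0842), and kept without irradiated tumor 3 (0.0298). It was also lost without a filter on low values (0.123) and without trend (0.0637). Over all alternatives its adjusted p ranged from 0.0101 to 0.123 and its log2 fold change from -1.62 to -1.11. The gene (ENSG00000118523) lies on chromosome 6 from 131948176 to 131951373 in GRCh38, on the minus strand.

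CCN1 (CYR61), the closest relative of CCN2 in use as a YAP reporter, is a secreted ligand of integrins. It was at 1329.6, 1266 and 2024 TPM in controls, and the irradiated tumors had 496, 938 and 659 TPM. The groups did not overlap, with the nearest tumors being control tumor 2 and irradiated tumor 2. The means were 1539.9 ± 420.3 and 698 ± 223 TPM (SD, n = 3), with a log2 fold change of -1.16 (95% interval -1.75 to -0.56, limma adjusted p = 0.0556), just outside the threshold. It passed without irradiated tumor 2 (adjusted p = 0.0429), with a minimum mean of 5 TPM (0.0450) and with sample weights (0.0425). With a mean of 1118.8 TPM over the 6 tumors, CCN1 lay above 99.0% of all tested genes in level.

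Of the other CCN family members, CCN3 alone was measured, and CCN4, CCN5 and CCN6 stayed at or under 0.27 TPM. CCN3 (NOV), which can oppose CCN2 in culture, was at 7.72, 10.1 and 7.69 TPM in controls and 18.0, 17.5 and 12.5 TPM in irradiated tumors. Its values went the other way from those of CCN1 and CCN2, with no overlap, but did not pass (log2 fold change 0.83, limma adjusted p = 0.0732). Summed over the family, levels were 1615 to 2441 TPM in controls and 605 to 1093 TPM in irradiated tumors, nearly all of it CCN1 and CCN2.

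None of the 9 measured receptors of CCN proteins passed the limma test, and 3 had an unadjusted p under 0.05, a level that 20.5% of all genes tested reached. ITGB5, the beta subunit of the integrin αvβ5, was at 91.0 to 108 TPM in controls, and irradiated tumors had 123 to 189 TPM (log2 fold change 0.70, adjusted p = 0.0790). LRP6, a Wnt coreceptor that CCN2 can bind, was at 5.98 to 8.33 and 3.52 to 4.59 TPM (-0.66, adjusted p = 0.124). The groups did not overlap in either gene. The median log2 fold change of the 9 receptors was -0.06, the same to 2 decimals as that of all genes.

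AXL, a receptor tyrosine kinase of the TAM family and a YAP target linked to invasion, was the other target whose groups did not overlap. It was at 205, 157 and 174 TPM in control tumors and 108, 124 and 138 TPM in irradiated tumors. Control tumor 2 was the lowest control and irradiated tumor 3 the highest irradiated tumor. The means were 178 ± 24.3 and 123 ± 15.0 TPM (SD, n = 3), with a limma log2 fold change of -0.53 (95% interval -0.88 to -0.18, adjusted p = 0.104). Among the alternatives AXL passed only with sample weights (adjusted p = 0.0447). Its relatives TYRO3 and MERTK were low, at 5.14 to 10.6 and 6.32 to 10.4 TPM. GAS6, the ligand of all 3 receptors, was at 59.1 to 67.4 TPM in controls and 43.9 to 84.9 TPM in irradiated tumors, with overlap. None of the 5 TAM genes passed, and AXL was the one with an unadjusted p under 0.05.

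ANKRD1, a nuclear and sarcomeric ankyrin repeat protein and a classical YAP target, did not follow the CCN genes. It was at 5.91, 11.6 and 8.12 TPM in controls and 8.17, 12.0 and 19.7 TPM in irradiated tumors. Irradiated tumor 3 was the highest, and the other 2 irradiated tumors lay within the range of the controls or just above it. Limma gave a log2 fold change of 0.55 (95% interval -0.22 to 1.31, adjusted p = 0.391), with 0.24 when irradiated tumor 3 was left out, 0.34 when control tumor 1 was and 0.83 when irradiated tumor 1 was. ANKRD1 is also expressed in muscle, and muscle markers were lower in the irradiated tumors (below). Its muscle relatives ANKRD2 and ANKRD23 stayed at or under 1.35 TPM in every tumor.

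**Figure D3:**
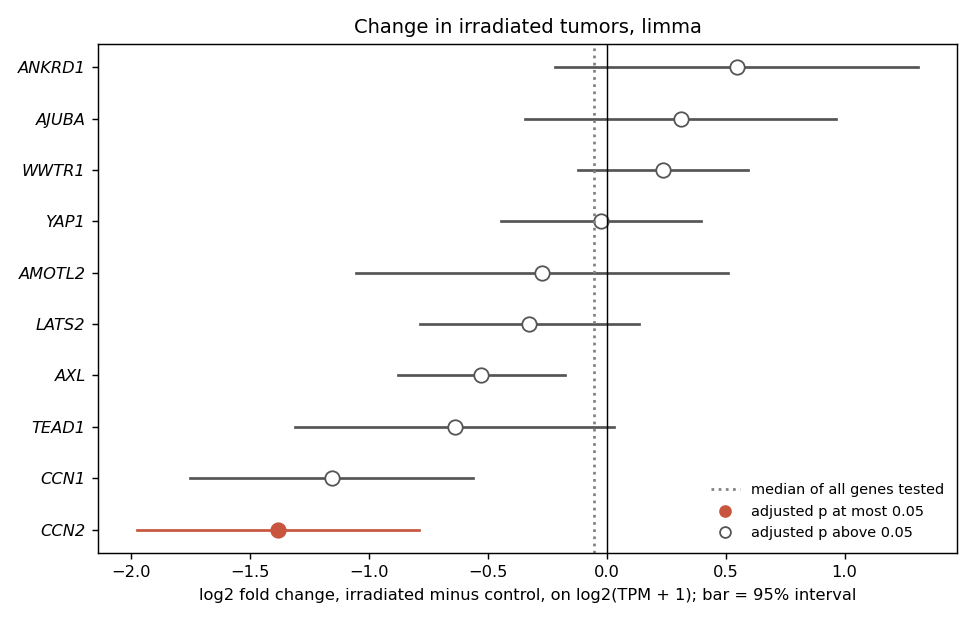
Log2 fold change of each gene (x axis, irradiated minus control, on log2(TPM + 1)) with its 95% interval from limma. CCN2 is the one filled point, at -1.38. The intervals of CCN1 and AXL also lie below 0, but their adjusted p of 0.0556 and 0.104 are above the threshold.

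The negative feedback genes of the pathway are themselves induced by YAP1 and TAZ. AMOTL2, a scaffold that binds YAP1 at junctions, was at 58.3, 29.7 and 86.4 TPM in controls and 37.0, 48.4 and 47.1 TPM in irradiated tumors. All irradiated values lay inside the control range, and the controls spread 2.91-fold. Its log2 fold change of -0.27 (95% interval -1.05 to 0.51, limma adjusted p = 0.685) became 0.07 without control tumor 3. LATS2, the kinase that inhibits YAP1 and TAZ, was at 12.4, 10.1 and 13.9 TPM and at 7.66, 9.90 and 10.9 TPM (log2 fold change -0.33, 95% interval -0.78 to 0.13, adjusted p = 0.396). Irradiated tumor 3 exceeded control tumor 2, and the other 2 irradiated tumors were below all controls.

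AJUBA, a LIM protein that inhibits LATS kinases at junctions, was at 32.6, 16.0 and 27.9 TPM in controls and 24.8, 40.6 and 28.3 TPM after irradiation. The groups overlapped throughout, between a low control tumor 2 and a high irradiated tumor 2. Limma gave a log2 fold change of 0.31 (95% interval -0.34 to 0.97, adjusted p = 0.567), and -0.18 without both of those tumors, an alternative chosen after seeing the data. AJUBA is uncertain, because in GENCODE 29 its exons overlap those of another gene on the same strand, AL132780.3, listed at 10.9 to 18.2 TPM. None of the 6 Ajuba and zyxin family members passed. TRIP6, another LIM protein of that family that binds LATS kinases, was at 113 to 136 TPM in controls and 148 to 164 TPM in irradiated tumors, with no overlap (log2 fold change 0.34, adjusted p = 0.180).

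The coactivators themselves had like levels in both groups. YAP1 was at 45.0, 35.8 and 37.1 TPM in controls and 31.2, 38.9 and 46.8 TPM in irradiated tumors, and irradiated tumors held both the lowest and the highest value. Limma gave a log2 fold change of -0.02 (95% interval -0.45 to 0.40, adjusted p = 0.957), an interval that leaves room for a change of up to 0.45 downward. WWTR1, which encodes TAZ, was at 93.9, 68.3 and 85.9 TPM and at 106, 90.6 and 94.4 TPM. Control tumor 1 lay among the irradiated tumors, and the log2 fold change was 0.24 (95% interval -0.12 to 0.60, adjusted p = 0.430). After scaling by medians of ratios the WWTR1 groups no longer overlapped. WWTR1 mRNA exceeded YAP1 mRNA in every tumor, with a ratio of 1.91 to 2.31 in controls and 2.02 to 3.41 in irradiated tumors.

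TEAD1 was at 32.1, 13.7 and 20.7 TPM in controls and 11.1, 12.8 and 15.8 TPM in irradiated tumors. Control tumor 1 was far above the rest, and control tumor 2 lay among the irradiated tumors. Limma gave a log2 fold change of -0.64 (95% interval -1.31 to 0.03, adjusted p = 0.262), and -0.34 without control tumor 1. The other TEAD factors had values in both directions. TEAD2 was at 25.1 to 27.5 TPM in controls and 28.9 to 35.6 TPM in irradiated tumors (0.25, adjusted p = 0.367). TEAD3 was at 11.8 to 14.5 and 15.9 to 22.3 TPM (0.45, adjusted p = 0.215). The groups did not overlap in TEAD2 or TEAD3, whose irradiated values were higher, and overlapped in TEAD4 (-0.41, adjusted p = 0.321). The 4 TEAD genes summed to 75.4 to 104 TPM in controls and 74.2 to 95.5 TPM in irradiated tumors. TEAD1 made up 18.1% to 31.0% of that sum in controls and 14.9% to 16.6% in irradiated tumors.

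Of the vestigial-like cofactors, VGLL4, which competes with YAP1 for TEAD binding, was at 45.3 to 50.3 TPM in controls and 61.5 to 69.0 TPM in irradiated tumors. The groups did not overlap and the spread within each was small, but VGLL4 did not pass (log2 fold change 0.44, 95% interval 0.15 to 0.74, limma adjusted p = 0.106). VGLL3 was at 0.59 to 3.27 TPM and at 0.24 to 0.28 TPM (-1.10, adjusted p = 0.156). At these low levels its fold change depended on the pseudocount, at -2.20 with 0.1 TPM and -0.38 with 5 TPM. VGLL3 averaged 1.10 TPM over the 6 tumors and met the filter of 1 TPM only through the controls (mean 1.93 against 0.267 TPM). It was not tested without control tumor 1 or without control tumor 3. It passed with sample weights (limma adjusted p = 0.0411) and without control tumor 2 (0.0404), which the filter favoured. VGLL1 and VGLL2 were listed at 0 in all tumors. None of the 8 measured factors and cofactors passed, and 3 had an unadjusted p under 0.05 (20.5% of all genes). Their median log2 fold change was 0.11.

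Among 36 measured kinases, scaffolds and upstream regulators of the Hippo pathway, none passed the limma test, and 4 had an unadjusted p under 0.05, a smaller share than the 20.5% of all genes. The median log2 fold change was -0.18, with 23 below 0 and 13 above (7872 of 14140 below 0 over all genes). The kinase MAP4K5 was at 20.1 to 28.2 TPM in controls and 14.8 to 18.1 TPM in irradiated tumors (-0.53, adjusted p = 0.139). The polarity scaffold PALS1 was at 10.5 to 17.3 and 8.11 to 10.2 TPM (-0.54, adjusted p = 0.195). NF2 was at 9.29 to 14.9 and 7.94 to 8.66 TPM (-0.48, adjusted p = 0.229). The groups did not overlap in these 3 genes and in TP53BP2 (-0.32), all lower after irradiation, nor in FAT4 (0.39), which was higher. That is 4 lower and 1 higher of 36, against 15.0% and 11.6% of all genes. The core kinases STK3, STK4 and LATS1 overlapped between groups, with log2 fold changes of -0.15, -0.26 and -0.36.

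A signature of 22 YAP and TAZ targets, to which CCN2, CCN1, ANKRD1, AMOTL2, LATS2 and AXL belong, was measured in full. CCN2 was the one call of the 22, where 1.61% of all genes fell. Of the fold changes 19 were below 0 and 3 above (7872 of 14140 below 0 over all genes). The median was -0.38 against -0.06 for all genes. The groups did not overlap in 4 of 22, all lower after irradiation, near the 15.0% of all genes in that direction, and 1 gene beyond the 3 named above. That gene was FJX1, the relative of a Golgi kinase of the fly Fat pathway, at 21.5 to 31.2 TPM in controls and 11.3 to 18.4 TPM after irradiation (limma log2 fold change -0.78, adjusted p = 0.104). F3, tissue factor, was at 114, 116 and 164 TPM in controls and at 52.1, 123 and 56.6 TPM in irradiated tumors (-0.85, adjusted p = 0.180). Irradiated tumor 2 was thus inside the control range for F3. NT5E (CD73), the second most abundant of the signature, did not separate the groups, at 420 to 489 and 355 to 543 TPM (-0.04, adjusted p = 0.923).

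CCN2 and CCN1 are also targets of SRF with MRTF and of TGF-beta, and both lists are described here without a test of the difference between them. Of 16 SRF/MRTF targets, 4 fell and none rose (1.61% and 1.37% of all genes). In 8 the groups did not overlap, all lower after irradiation (15.0% of all genes). ACTA2, smooth muscle actin, fell from 182 ± 34.1 TPM in controls to 51.0 ± 22.3 TPM (SD, n = 3), a limma log2 fold change of -1.88 (adjusted p = 0.0174). TAGLN (transgelin) fell by 1.83 on the log2 scale (adjusted p = 0.0240), TPM1 (tropomyosin) by 1.31 (0.0411) and ACTG1 (cytoplasmic actin) by 0.79 (0.0447). ACTA2 and TAGLN mark contractile cells and fibroblasts as well as SRF activity. The list's median was -0.38. All 4 calls were lost without control tumor 1, without control tumor 3 and without a filter on low values. Those of ACTA2, TAGLN and ACTG1 were also lost without irradiated tumor 2, those of TAGLN, TPM1 and ACTG1 without irradiated tumor 1, and that of TPM1 without irradiated tumor 3, with adjusted p up to 0.186 over all alternatives. TPM1 and ACTG1 did not pass without trend, nor ACTG1 after median-of-ratios scaling (0.0789) or with a pseudocount of 5 TPM (0.0542).

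Of 17 TGF-beta targets and pathway genes, 2 rose and 1 fell (1.37% and 1.61% of all genes), and the median was 0.10. In these 3 genes alone the groups did not overlap (26.6% of all genes), and they alone had an unadjusted limma p under 0.05 (20.5% of all genes). ID1, an inhibitor of DNA binding that BMP signals induce, rose from 16.3 ± 1.62 TPM in controls to 45.5 ± 9.09 TPM (SD, n = 3), a limma log2 fold change of 1.41 (adjusted p = 0.00740), and a call kept in all 15 alternatives. Its relative ID3 was at 3.93, 15.2 and 5.55 TPM in controls and 57.1, 36.6 and 28.8 TPM in irradiated tumors, and rose by 2.32 (adjusted p = 0.0323). BHLHE40, a transcriptional repressor also induced by hypoxia, fell by 0.59 (adjusted p = 0.0431). ID3 and BHLHE40 kept their calls when control tumor 2 was left out and lost them when any other tumor was (highest adjusted p 0.114 and 0.168), and both calls were also lost without trend and with no low-value filter. BHLHE40 did not pass after median-of-ratios scaling either (0.0676). None of 9 AP-1 subunits passed, 1 had an unadjusted p under 0.05 (20.5% of all genes) and their median was 0.08. That gene was JUND, at 102 to 153 TPM in controls and 65.7 to 105 TPM in irradiated tumors (-0.54, adjusted p = 0.200).

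**Figure D4:**
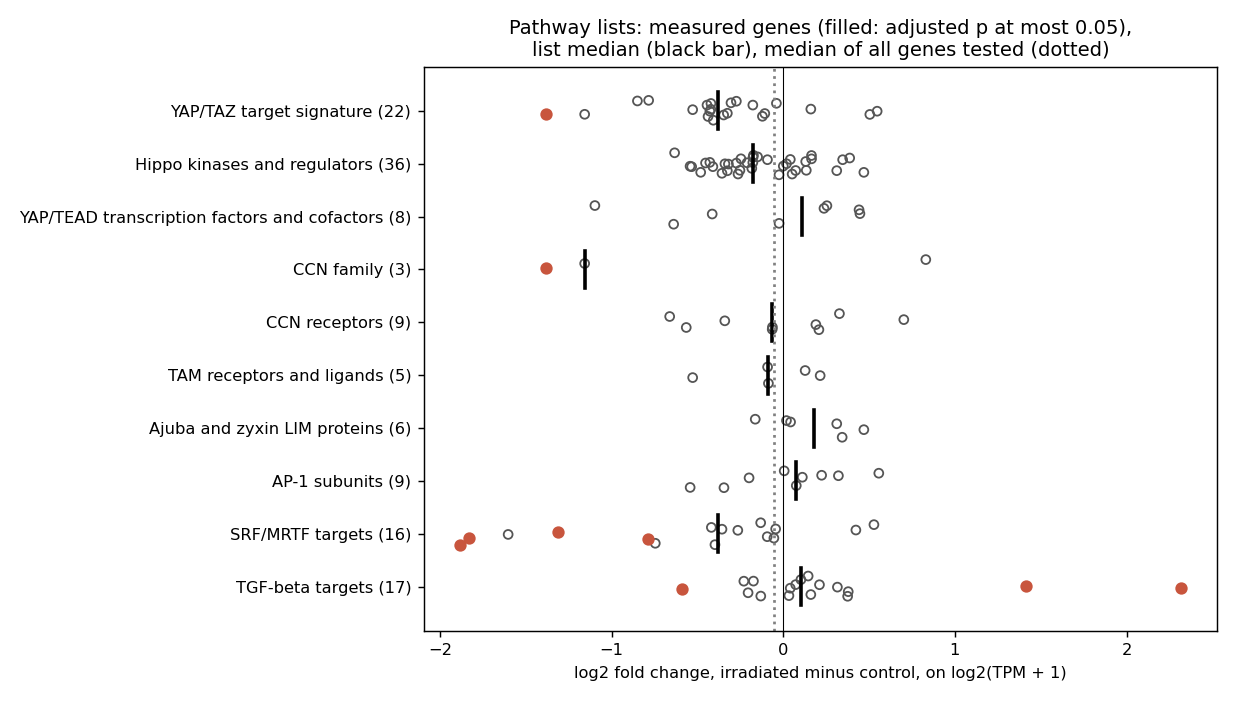
Log2 fold changes (x axis, irradiated minus control, on log2(TPM + 1)) of the measured genes of 10 pathway lists, with their number in brackets. Filled points passed the limma test, the black bar is the list median and the dotted line the median of all genes, -0.06. The medians of the YAP/TAZ signature (-0.38) and of SRF/MRTF targets (-0.38) lie left of the dotted line, and that of TGF-beta targets (0.10) to its right.

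Fibroblast and muscle markers were lower in sum in irradiated tumors, where CCN2 and CCN1 were lower, and the sums of endothelial and leukocyte markers were not. The 12 fibroblast markers summed to 487 to 1029 TPM in controls and 137 to 223 TPM in irradiated tumors. Of the 8 measured, 7 had a fold change below 0 (7872 of 14140 over all genes). The eighth, PDGFRB, was at 2.12 to 4.95 TPM in controls and 4.21 to 12.8 TPM after irradiation (log2 fold change 0.95, limma adjusted p = 0.211). COL1A1, COL1A2 and COL3A1, which make up most of that sum, fell, with log2 fold changes of -1.96, -2.07 and -2.29 (limma adjusted p = 0.0194, 0.0112 and 0.0151). In 6 of the 8 measured, these 3 with FBLN1, FAP and POSTN, the groups did not overlap, all lower after irradiation (15.0% of all genes). The 3 collagens were the only calls (1.61% of all genes fell). FBLN1 was at 7.72 to 21.1 TPM in controls and 3.58 to 5.99 TPM in irradiated tumors. POSTN and DCN averaged 0.687 and 0.74 TPM in irradiated tumors and met the filter only through the controls. Other fibroblast genes were near 0, with LUM, PDGFRA and THY1 at or under 0.39 TPM and DCN at or under 4.82 TPM in every tumor. The 16 skeletal muscle markers summed to 283, 316 and 712 TPM in controls, against 4.63, 204 and 6.79 TPM for irradiated tumors 1 to 3. All 13 measured ones had a fold change below 0 (7872 of 14140 over all genes). Of these, MYH1, MYH2 and CASQ1 averaged 0.857, 0.19 and 0.257 TPM in irradiated tumors. They met the filter of 1 TPM only through the controls, which favoured a value below 0, so the count is a description.

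Control tumor 3 had the highest CCN2, CCN1, fibroblast sum and muscle sum. Irradiated tumor 2 had the highest CCN1, fibroblast sum and muscle sum of its group, but not the highest CCN2. The 10 cell line markers summed to 10999 to 13553 TPM in controls and 13145 to 14186 TPM in irradiated tumors, with LGALS1 the most abundant. Of these 10, 6 had a fold change below 0 (7872 of 14140 over all genes) and the median was -0.11. VIM (-0.46) and CD44 (-0.44) were lower and LGALS1 (0.51) higher in every irradiated tumor than in any control. That is 3 of 10 without overlap, near the 26.6% of all genes. None of the 10 passed the limma test, and 3 had an unadjusted p under 0.05 (20.5% of all genes). Leukocyte markers summed to 92.1 to 114 and 109 to 209 TPM, most of it CD68, with PTPRC at or under 0.30 TPM. Endothelial markers summed to 34.6 to 49.7 and 50.6 to 86.8 TPM, most of it EGFL7, with VWF at or under 0.18 TPM. The part of host cells in the values of CCN2, CCN1 and AXL was not tested, and whether mouse reads were removed is not given in the sources used here.

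**Figure D5:**
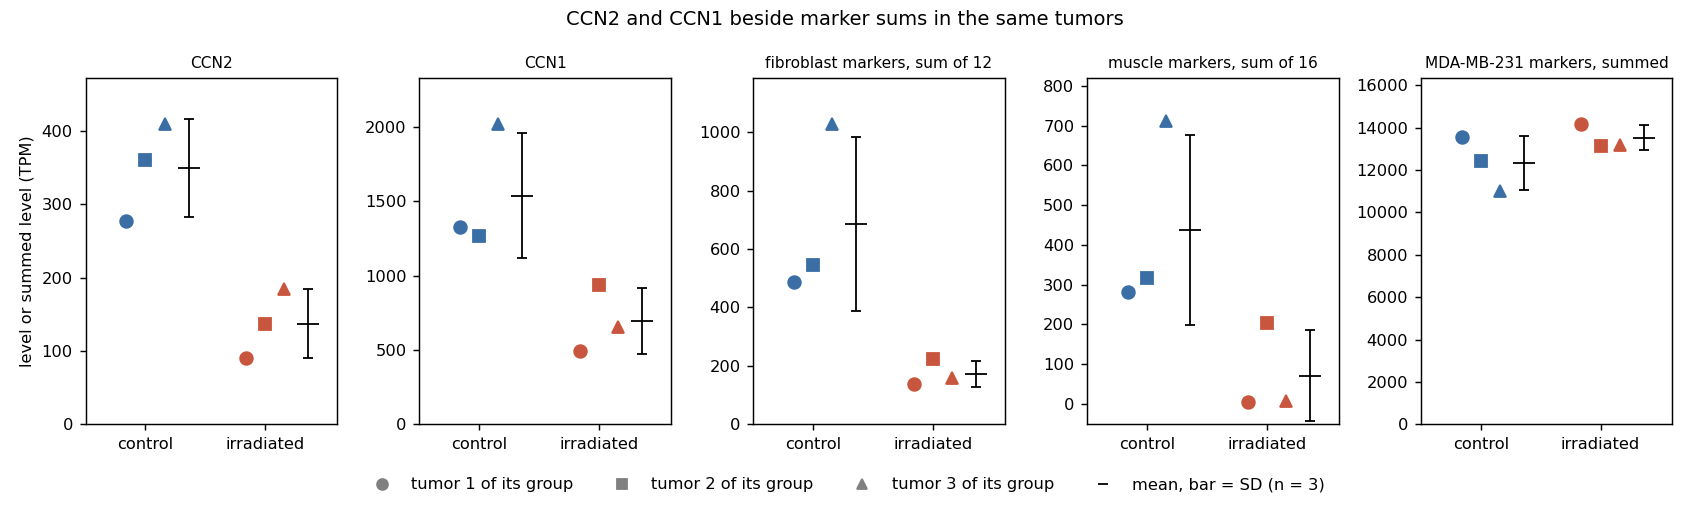
CCN2 and CCN1 levels and summed marker levels in TPM (y axis) in each tumor, with mean and SD. Fibroblast and muscle sums are lower in irradiated tumors, as CCN2 and CCN1 are, and the sum of cell line markers, most of it LGALS1 and VIM, is not.

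In level, the genes formed a wide order. CCN1 was above CCN2 in every tumor, without overlap of their ranges over the 6 tumors. CCN2 was above AXL in 5 of 6 tumors, the exception being irradiated tumor 1. In controls the ranges of CCN2 and AXL did not overlap (278 to 410 against 157 to 205 TPM). In irradiated tumors they did (90.7 to 184 against 108 to 138 TPM), so the order of these neighbours was not settled there. AXL was above WWTR1 without overlap of ranges. From WWTR1 down through AMOTL2, YAP1, AJUBA, TEAD1, ANKRD1 and LATS2 each gene's range overlapped that of the next. AJUBA was above TEAD1 in all 6 tumors. ANKRD1 and LATS2, with means of 10.9 and 10.8 TPM, could not be ordered.

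Genes with a pattern like that of CCN2 over the 6 tumors were sought among tested genes averaging at least 5 TPM. Clone, LOC and LINC names were left out, as were symbols ending in P or in P and digits. That last filter was meant for pseudogenes but also drops coding genes such as LRP6 and TRIP6. Of the genes kept, the 5 most like CCN2 were RHOA, BAG6, RBM24, ENO1 and the read-through gene HNRNPUL2-BSCL2. Their Pearson r with CCN2 on log2(TPM + 1) was 0.985 to 0.989, taken across both groups, so the difference between groups enters it. RHOA, the small GTPase that controls actin tension, had the highest, with 675, 714 and 713 TPM in controls and 560, 603 and 612 TPM in irradiated tumors. By rank RHOA was the least like CCN2 of the 5, with a Spearman rho of 0.943 against 1 for the others. The change of RHOA itself did not pass (log2 fold change -0.24, limma adjusted p = 0.255). HNRNPUL2-BSCL2, which shares sequence with its 2 parent genes and is uncertain, fell by 1.36 (adjusted p = 0.0165). Among the other 9 genes described, r with CCN2 was highest for CCN1 (0.90), AXL (0.85) and LATS2 (0.82), and below 0 for WWTR1, AJUBA and ANKRD1. Of the 14140 genes tested, 245 had a higher r than CCN1, 597 than AXL and 794 than LATS2, with CCN2 itself counted.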

How the data were processed

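The authors deposited 1 table of TPM values for 60606 genes in 6 tumors. Build hg38 and the tools RSEM, HISAT2 and StringTie are named in the submitters' processing notes, and their versions, the annotation, strand use and handling of mouse sequence are not stated in the sources used here. Columns were tied to tumors by their titles, and all were used. From these values limma 3.58.1 in R 4.3.3 (lmFit, eBayes with trend, group as the only term, two-sided) was run on log2(TPM + 1) over 14140 genes averaging at least 1 TPM, with Benjamini-Hochberg adjustment at 0.05, and tested on simulated data. Coordinates and overlaps come from GENCODE 29 (GRCh38), and promoters from RefSeq (GRCh38.p14). Depth is unknown, so no counting interval is given.

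The genes and lists were chosen with earlier results of these data known, and are described without set tests. Named genes are the 10 genes and up to 4 calls per direction in each pathway list (otherwise the 2 smallest p). The 5 genes most like CCN2 after the filters on level and name, and leading markers, are also named. Named after their values were seen were CCN3, TEAD2, TEAD3, TEAD4, FJX1, F3, NT5E, NF2, GAS6, TYRO3, STK3, STK4, LATS1, TP53BP2, FAT4, CD44, PDGFRB and COL3A1, and markers near 0. The same holds for FBLN1, FAP, POSTN, MYH1, MYH2 and CASQ1. Alternatives were 2 pseudocounts, 2 filters, median-of-ratios scaling, no trend, sample weights, a replicate block, and each tumor left out.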

Additional observations from a re-analysis of the deposited data

How the results depend on the processing

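Of 150 values of the 10 genes' log2 fold changes under 15 alternatives, 133 kept direction and side of the threshold, 8 lost a call (all CCN2), 4 gained one (CCN1 3 times, AXL once) and 5 changed sign. The sign changes were in YAP1 (0.027 with median-of-ratios scaling, and -0.16 to 0.12 with single tumors left out), AMOTL2 (-0.68 to 0.072 with single tumors left out) and AJUBA (-0.18 without control tumor 2 and irradiated tumor 2). The number of the 10 genes called with limma was 0 without a filter, without trend, and without control tumor 2 and irradiated tumor 2. It was 2 with a minimum mean of 5 TPM, 3 with sample weights, and 0 to 1 with single tumors left out. Without a filter, 3 of the 10 genes had an unadjusted limma p under 0.05 (3782 of 30037 over all genes). There were 3 without trend (2803 of 14140) and 5 without those 2 tumors (3160 of 14240). Over all genes, 421 calls became 133 without a filter, 279 without trend, 1064 with sample weights, 186 without both tumors numbered 2, and 127 to 791 with single tumors left out. Fewer samples were tested in the last 2 settings. The 791 calls came without control tumor 2, which had the high ribosomal protein share, and leaving out any other single tumor gave 127 to 192. The cause of these differences was not tested in any setting. The longer motif GGAATGT was found in 3 of 8 genes, against 4.25% of the 27305 genes with promoter windows.

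The replicate number as a block gave 185 calls over all genes and kept CCN2 (adjusted p = 0.0101), while TPM1, ACTG1 and BHLHE40 lost their calls (0.0572, 0.0618 and 0.121). Deviations from group means of tumors with the same number correlated at -0.04, -0.05 and -0.06, and no tumor correlated best with its own number, so the numbers were not treated as pairs. TPM keeps no depth, so values of low genes such as VGLL3 have unknown precision.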

Other observations

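The ratio of CCN1 to CCN2 was 4.79, 3.51 and 4.94 in control tumors 1 to 3 and 5.48, 6.85 and 3.58 in irradiated tumors 1 to 3. These values overlapped, so the 2 secreted targets were lower together without a separation of their ratio between groups. COL1A1 was the most abundant gene of the fibroblast marker list, and the cells it came from were not tested. The ratio of CCN2 to COL1A1 was 0.83, 1.04 and 0.59 in controls and 1.04, 0.90 and 1.81 in irradiated tumors, again with overlap.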
